A study of Mus musculus with 12 samples.

Results

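The 5 genes described here encode the core of the epithelial adherens junction: the cadherins Cdh1 (E-cadherin) and Cdh3 (P-cadherin) and the catenins Ctnna1 (α-catenin), Ctnnb1 (β-catenin) and Ctnnd1 (p120-catenin). They were taken by their gene symbols from the 23282 entries counted in mouse skin, and all 5 passed the filter on low counts and were tested. The comparison was between 5 AD mice and 7 HF + AD mice (written AD+OB in the labels), all male C57BL/6J with the genotype label WT and 5 weeks old at the start. Both groups received 0.5% 2,4-dinitrochlorobenzene (DNCB), a contact sensitizer used to produce lesions resembling atopic dermatitis, on the dorsal skin 3 times a week for 6 weeks. AD mice ate normal chow, and HF + AD mice ate a diet with 60% of its energy from fat for 10 weeks, the first 4 of them before DNCB. Untreated and herb-treated mice of the same study were not analysed here, so the values compare diets among DNCB-treated mice and give no level for healthy skin. The labels number the samples within a group without naming animals, each sample was taken as 1 mouse, and p-values measure the spread between these samples.

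In the adherens junction, cadherins of neighbouring cells bind each other through their extracellular domains. On the inner side, β-catenin binds the cadherin tail and carries α-catenin, which connects the complex to actin, while p120-catenin binds closer to the membrane and slows the removal of cadherin from the cell surface. β-catenin has a further role as the coactivator of Wnt target genes, for which the pool outside the junction is kept low by a destruction complex. In skin, E-cadherin is made throughout the living epidermis and by Langerhans cells and pigment cells, whereas P-cadherin is mainly made by basal and hair follicle keratinocytes.

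Of the 5 genes, Ctnnd1 rose and Ctnna1 fell in HF + AD skin (1 of 5 in each direction), where 4.43% of all genes tested rose and 4.77% fell. Cdh1, Cdh3 and Ctnnb1 did not pass the adjusted threshold of 0.05. Ctnnd1 was the gene whose groups did not overlap, and the upstream sequences on record for the catenins are shown first, since no other regulatory readout accompanied the counts. RefSeq (GRCm38.p6) start sites were on record for 2 of the 5 genes, Ctnnd1 and Ctnnb1, and Cdh1, Cdh3 and Ctnna1 are named only. The 250 bases before each start are given 5′ to 3′ on the gene's strand, with 3 motifs in capitals wherever they or their reverse complements occur: the CCAAT box, the GC box written GGGCGG, and the TATA box written TATAAA. The first is the start of Ctnnd1 that lies farthest upstream of those on record (chr2:84658978-84659227, minus strand). The next is a start of the same gene farther downstream (chr2:84650741-84650990, minus strand), and the last a start of Ctnnb1 (chr9:120933150-120933399, plus strand).
Ctnnd1, upstream start: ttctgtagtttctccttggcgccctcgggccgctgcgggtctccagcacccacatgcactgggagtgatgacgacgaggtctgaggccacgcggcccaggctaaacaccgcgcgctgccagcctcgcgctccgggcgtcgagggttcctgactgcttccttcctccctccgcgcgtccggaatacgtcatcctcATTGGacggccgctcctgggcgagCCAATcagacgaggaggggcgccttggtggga
Ctnnd1, downstream start: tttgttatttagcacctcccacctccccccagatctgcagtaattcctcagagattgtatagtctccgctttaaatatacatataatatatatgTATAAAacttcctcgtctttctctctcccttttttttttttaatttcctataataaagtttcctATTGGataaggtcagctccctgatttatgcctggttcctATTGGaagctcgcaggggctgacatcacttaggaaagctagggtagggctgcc
Ctnnb1, first start: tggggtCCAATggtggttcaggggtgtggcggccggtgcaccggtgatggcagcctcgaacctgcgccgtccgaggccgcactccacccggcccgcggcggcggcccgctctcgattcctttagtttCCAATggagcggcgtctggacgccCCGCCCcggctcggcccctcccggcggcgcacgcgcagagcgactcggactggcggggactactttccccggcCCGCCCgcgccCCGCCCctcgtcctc

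The Ctnnd1 windows differed in base composition, with 66.8% G and C before the upstream start and 40% before the downstream one, against 74.8% before Ctnnb1. A further start of Ctnnb1, at 120933578 and not printed, had 74.4% G and C, no CCAAT, 2 copies of GGGCGG and TATAAA 120 bases before it. Each of the 3 printed windows held 2 copies of CCAAT, at 56 and 32 bases before the upstream Ctnnd1 start, 92 and 53 before the downstream one, and 244 and 123 before the first start of Ctnnb1. CCAAT occurred in 33.8% of the 32851 RefSeq windows of this length. GGGCGG (32.7% of windows) was matched 3 times before the first Ctnnb1 start and in neither Ctnnd1 window, and TATAAA (12.4%) once in the printed windows, 156 bases before the downstream Ctnnd1 start. CAGGTG, the E-box bound by Snail-type repressors (17.2% of windows), and CTTTGA, a core bound by TCF/LEF factors (13.8%), were not among the letters of these windows. None of the 5 motifs contains another, and a match describes the letters and not a binding site. The counting reads the 3′ end of transcripts, so the start used in these mice was not measured.

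Cdh1 and Cdh3 lie on the plus strand of chromosome 8 of GRCm38, with Cdh3 at 106510891–106557297 and Cdh1 at 106603351–106670246, 46053 bases apart. Ctnnb1 lies on chromosome 9 at 120929216–120960507 on the plus strand, and Ulk4, which overlaps its 3′ end on the opposite strand, had 1 to 46 counts per mouse. Ctnnd1 lies on chromosome 2 at 84600071–84650765 on the minus strand. The gene model Gm28635, at 84601439–84678041 on the same strand, overlaps all of it but the 3′ end, and had no row of its own, so any reads shared by both could not be divided. These bounds differ from the RefSeq starts of Ctnnd1 printed above. The downstream start lies just inside the 5′ end of Ctnnd1, and the upstream start lies outside its bounds, within those of Gm28635. Ctnna1 lies on chromosome 18 on the plus strand and holds Lrrtm2 on the opposite strand, with 0 to 125 counts. Whether the counting used the strand is not given in the sources used here.

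Totals lay between 9746937 and 11688979 counts in AD mice and between 10726845 and 13462434 in HF + AD mice. After thinning to the smallest total, HF + AD libraries had 15499 to 16541 genes with a count and AD libraries 13100 to 15015, a difference of 1933 genes (exact permutation p = 0.00126, two-sided, the smallest that groups of 5 and 7 allow). Across the table, 627 of 14163 genes rose (4.43%) and 676 fell (4.77%), 9.2% in either direction at an adjusted p under 0.05 (edgeR quasi-likelihood test, Benjamini–Hochberg over all genes). With library totals in place of TMM scaling, which corrects for a few abundant genes taking unequal shares, 744 rose and 519 fell. The groups did not overlap for 5.46% of genes and 25.1% had an unadjusted p under 0.05. Of 15 marker lists for skin cell types, none had a gene at 0 in all mice.

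Cdh1 mRNA was lower in HF + AD mice by a margin at the edge of the threshold. The 5 AD mice had 1581, 1202, 871, 1119 and 1249 CPM (counts relative to the TMM-scaled total of the library), and the 7 HF + AD mice ranged from 780 to 1001 with a median of 930. All but 1 AD mouse lay above the highest HF + AD mouse, while AD mouse 3 lay within the HF + AD range, so the groups overlapped, and 3 of the 7 HF + AD mice were below all AD mice. Means were 1204 ± 256 CPM (SD, n = 5) and 889 ± 82.4 CPM (SD, n = 7). The log2 fold change was −0.44 (SE 0.14) with an edgeR adjusted p = 0.0504, and the difference in log2(CPM + 1) was −0.42 by the exact permutation test (p = 0.00884). The adjusted p lay between 0.015 and 0.141 over 23 other ways of processing, 6 of which called the gene as lower. In bulk skin, fewer cells making a transcript and less of it per cell cannot be told apart.

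Cdh3 values were more scattered in AD than in HF + AD skin. The AD mice had 87.7, 157, 119, 86 and 64 CPM, and the HF + AD mice 64.4 to 88.5 CPM with a median of 77.9. AD mice 2 and 3 were above all HF + AD mice, the other AD mice were within or just under the HF + AD range, and no HF + AD mouse was outside the AD range. The log2 fold change was −0.41 (SE 0.18, edgeR adjusted p = 0.177), and the difference in log2(CPM + 1) was −0.34 (exact permutation p = 0.106). That difference was −0.49 without AD mouse 5, the lowest of its group (exact permutation p = 0.00909), and −0.17 without AD mouse 2, the highest (exact permutation p = 0.294). The highest AD mouse had 2.45 times the lowest, against 1.37 times in HF + AD mice. This was not particular to Cdh3. Whole AD libraries were less alike, with a median r of 0.895 between 2 of them, against 0.962 for HF + AD libraries. Cdh1 also spread more in AD mice (1.81 times against 1.28), and Ctnnd1 alone of the 5 genes spread less (2.66 against 3.69).

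Ctnna1, which encodes the actin-linking catenin of epithelia, fell in HF + AD skin. The AD mice had 231, 357, 325, 265 and 282 CPM, and the HF + AD mice 179 to 256 CPM with a median of 213. AD mouse 1 was the lowest of its group and lay among the HF + AD mice, of which 5 of 7 were below all AD mice. Means were 292 ± 49.7 CPM (SD, n = 5) and 214 ± 27.6 CPM (SD, n = 7), a fold of 0.732. The log2 fold change was −0.45 (SE 0.13, edgeR adjusted p = 0.0443), and the difference in log2(CPM + 1) was −0.44 (exact permutation p = 0.00631). The call was kept in 9 of the 23 alternatives. It was lost without any 1 of AD mice 2, 3, 4 and 5 or HF + AD mice 1, 2, 4, 6 and 7, where log2 fold changes lay between −0.48 and −0.37. Its size and adjusted p were close to those of Cdh1, which fell on the other side of the threshold.

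Ctnnb1 was the steadiest of the 5. The AD mice had 1403, 1597, 1580, 1754 and 1559 CPM and the HF + AD mice 1392 to 1663 CPM, with a median of 1479. The ranges lay almost on top of each other, and the highest mouse had 1.25 times the lowest in AD and 1.19 times in HF + AD. The log2 fold change was −0.08 (SE 0.10, edgeR adjusted p = 0.681), with 0 of 23 alternatives past the threshold. The difference in log2(CPM + 1) was −0.08 (exact permutation p = 0.189) and −0.12 without AD mouse 1, the lowest of its group (exact permutation p = 0.0394). Without AD mouse 4, the highest, it was −0.04 (exact permutation p = 0.455).

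Ctnnd1, which encodes the catenin that keeps cadherin at the membrane, rose in HF + AD skin. The AD mice had 117, 77, 95.7, 107 and 44.1 CPM, from 1296, 744, 948, 1211 and 488 counts. The HF + AD mice ranged from 134 to 494 CPM with a median of 259, from 1431 to 6414 counts. All 7 HF + AD mice were above all 5 AD mice, although HF + AD mouse 5, at 134 CPM, was not far above AD mouse 1, at 117. Means were 88.3 ± 28.9 CPM (SD, n = 5) and 263 ± 116 CPM (SD, n = 7), a fold of 2.98. The log2 fold change was 1.57 (SE 0.29, edgeR adjusted p = 0.00662), and the difference in log2(CPM + 1) was 1.53 (exact permutation p = 0.00126). The gene ranked 86th of 14163 by p. It passed in all 23 alternatives, with adjusted p between 1.78e-06 and 0.0287, and without HF + AD mouse 1, the highest, the log2 fold change was 1.35. The highest HF + AD mouse had 3.69 times the lowest, the widest spread among the 5 genes.

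**Figure D1:**
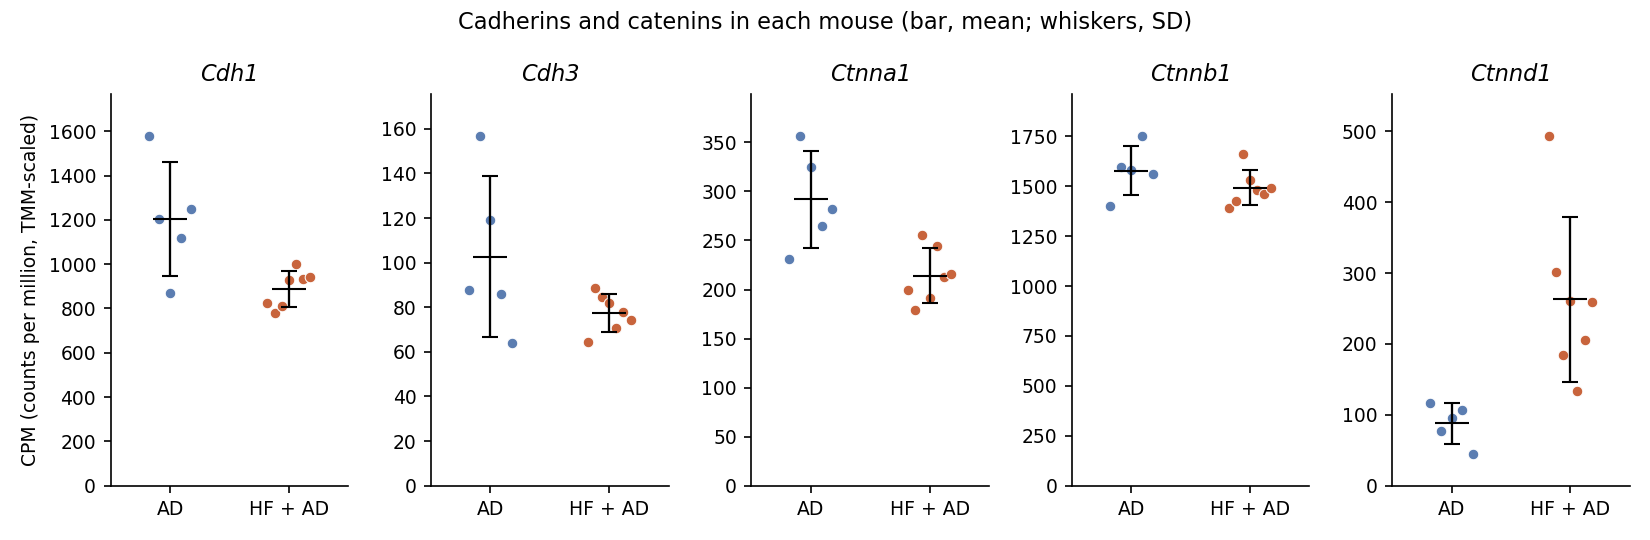
CPM on TMM-scaled totals for the 5 genes, 1 point per mouse, with the mean (bar) and SD (whiskers) of 5 AD and 7 HF + AD mice. The vertical axes start at 0 and differ between panels. For Ctnnd1 the 7 HF + AD mice, from 134 to 494, lie above the 5 AD mice, from 44.1 to 117, and for the other 4 genes the groups overlap.

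Against the background of 9.2%, 2 of the 5 genes passed the adjusted threshold and 4 of the 5 had an unadjusted p under 0.05 (1 higher and 3 lower), against 25.1% of all genes (12.3% higher and 12.8% lower). Groups without overlap were seen for 1 of the 5, with higher values in HF + AD mice, against 2.9% of all genes in that direction and 2.56% in the other. Log2 fold changes were below 0 for 4 of the 5, whereas the median over all genes was 0.02. All 5 were in the fifth of genes with the highest mean counts, where 8.47% rose and 13.5% fell. The number of genes with a count moved with the groups as given above, and its part in these values was not tested.

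Ratios between 2 of the genes within a library do not depend on how the libraries are scaled, and 6 were compared. Apart from the pseudocount, a difference in log2 ratio restates the difference of 1 gene minus that of the other. The ratios are thus not independent of the values of the single genes. The ratio of Ctnnd1 to Cdh1 differed the most. Its log2 ratio of counts was −3.82 ± 0.64 (SD, n = 5) in AD mice and −1.86 ± 0.68 (SD, n = 7) in HF + AD mice. All 7 HF + AD mice, from −2.90 to −0.74, were above all AD mice, from −4.82 to −3.19. The difference was 1.96, a fold of 3.89 (exact permutation p = 0.00126, adjusted over the 6 ratios 0.00758). The transcript of the catenin that holds cadherin at the surface and that of the cadherin itself thus changed unequally.

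α-catenin and β-catenin bind each other, and the log2 ratio of Ctnna1 to Ctnnb1 fell from −2.45 ± 0.23 (SD, n = 5) to −2.81 ± 0.15 (SD, n = 7), a difference of −0.36 (exact permutation p = 0.00631, adjusted 0.0189). In 5 of 7 HF + AD mice it was below all AD mice. Without AD mouse 2, the difference was −0.29 and the adjusted exact permutation p = 0.0636. The log2 ratio of Ctnnb1 to Cdh1 was 0.41 ± 0.39 (SD, n = 5) and 0.75 ± 0.16 (SD, n = 7), and the difference of 0.34 did not pass after adjustment (exact permutation p = 0.0429, adjusted 0.0859), although it did without AD mouse 3 (0.45, adjusted 0.0182). Without AD mouse 1 it was 0.19 (adjusted exact permutation p = 0.2).

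The other ratios showed no difference past the threshold. Ctnna1 to Cdh1 differed by −0.03 (exact permutation p = 0.908) and Cdh3 to Cdh1 by 0.07 (exact permutation p = 0.785), and single mice set the sign of both. Without AD mouse 2, AD mouse 3 or HF + AD mouse 4, the Ctnna1 to Cdh1 difference was 0.05, 0.13 and 0.01, and without AD mouse 1 or 5 the Cdh3 to Cdh1 difference was −0.07 and −0.10. Across AD mice the Cdh3 to Cdh1 log2 ratio ranged from −4.28 to −2.87, against −3.83 to −3.14 in HF + AD mice. Jup encodes plakoglobin, the close relative of β-catenin that serves both adherens junctions and desmosomes. Jup was at 274 ± 64 CPM (SD, n = 5) in AD and 346 ± 79.8 CPM (SD, n = 7) in HF + AD mice, with a log2 fold change of 0.34 (SE 0.17, edgeR adjusted p = 0.235). The log2 ratio of Jup to Ctnnb1 was higher by 0.41 (exact permutation p = 0.0997, adjusted 0.15), and by 0.58 without AD mouse 1 (adjusted 0.0182).

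**Figure D2:**
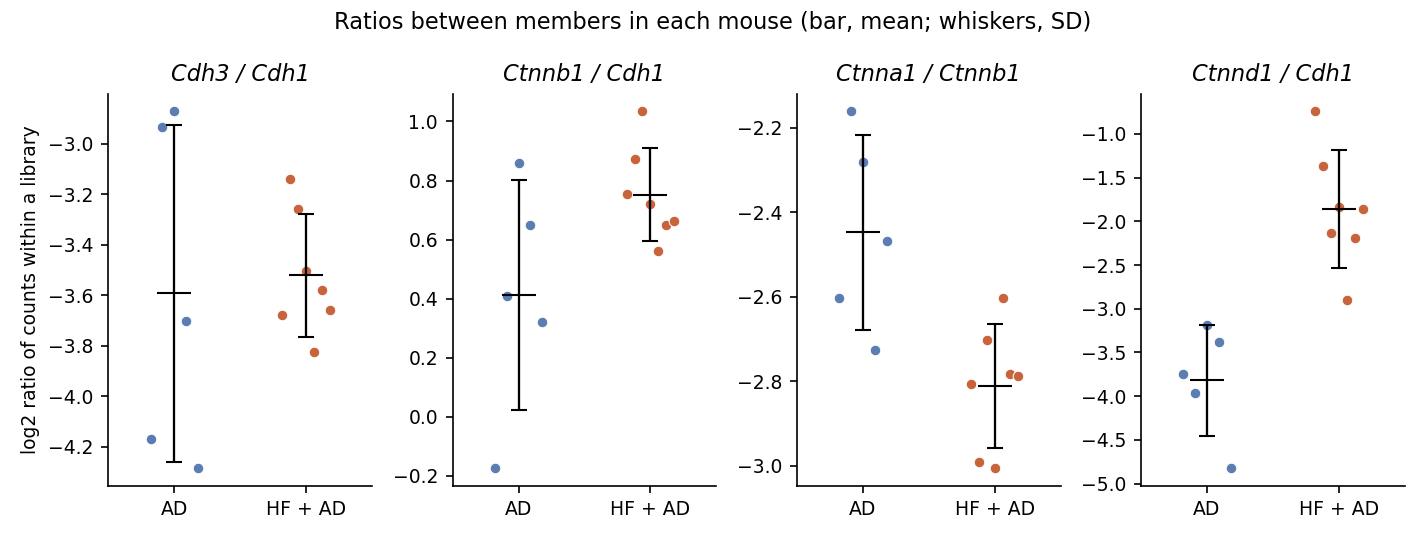
Log2 ratios of counts within a library for 4 pairs of genes, 1 point per mouse, with the mean (bar) and SD (whiskers) of 5 AD and 7 HF + AD mice. The vertical axes differ between panels. The Ctnnd1 to Cdh1 ratio separates the groups, with AD mice up to −3.19 and HF + AD mice from −2.90 upwards, and the Cdh3 to Cdh1 ratios of HF + AD mice lie inside the AD range.

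Since keratinocytes carry most of the skin's cadherin, the genes were also set against 9 markers of basal keratinocytes. Their summed level was 4008 to 5844 CPM in AD and 6575 to 11363 CPM in HF + AD mice, without overlap, and 3 of the 9 rose, against 4.43% of all genes: Krt5 (log2 fold change 0.81, SE 0.15, adjusted p = 0.00679), Krt14 (1.04, SE 0.27, adjusted p = 0.0248) and Krt15 (1.21, SE 0.28, adjusted p = 0.0151, all by edgeR). The other 6 did not pass, with Itgb4 at 0.39, Itga6 at 0.14, Col17a1 at 0.001, Dst at −0.16, Lamb3 at −0.24 and Trp63 at −0.29, so the summed level mostly followed the keratins. The mean log2(CPM + 1) of the list was higher by 0.31 in HF + AD mice (exact permutation p = 0.0177). Subtracting that mean moves the difference of each of the 5 genes by the same −0.31, so the relative values contain the difference of the markers. Relative to it, Cdh1 differed by −0.72 (exact permutation p = 0.00253, adjusted over the 5 genes 0.00631) and Ctnna1 by −0.75 (exact permutation p = 0.00126, adjusted 0.00631), with 7 of 7 HF + AD mice below all AD mice for both. Cdh3 was at −0.65 and Ctnnb1 at −0.39 (adjusted exact permutation p = 0.024 for each). With no markers subtracted they were at −0.34 and −0.08, where neither passed, so their relative values say nothing further about these genes. Cdh1 and Ctnna1 were at −0.42 and −0.44 with no markers subtracted, and Cdh1 did not pass by edgeR (adjusted p = 0.0504). The relative values of Cdh1 and Ctnna1 therefore add no support either. Ctnnd1 differed by 1.23 (exact permutation p = 0.00379, adjusted 0.00631) with 7 of 7 above.

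The relative differences depended on the marker list. Against 9 suprabasal markers, whose mean differed by 0.08 (exact permutation p = 0.824), none of the 5 passed, with differences of −0.50 for Cdh1 (adjusted 0.287), −0.42 for Cdh3 (adjusted 0.461), −0.52 for Ctnna1 (adjusted 0.339), −0.16 for Ctnnb1 (adjusted 0.671) and 1.45 for Ctnnd1 (adjusted 0.126). The suprabasal markers varied more between AD mice, with an SD of 0.67 on the log2 scale against 0.13 for the basal list. Markers of other epithelial cells, and of the pigment and Langerhans cells named above, gave mixed values. Summed pigment cell markers were 1865 to 2897 CPM in AD and 955 to 2022 CPM in HF + AD mice, below all AD mice in 5 of 7. Of the 8 genes, Dct and Pmel, an enzyme and a matrix protein of pigment synthesis, fell (25%, against 4.77% of all genes). The other 6 did not pass, with Sox10 at 0.42, Mitf at 0.07, Tyr at 0.03, Mlana at −0.315, Kit at −0.47 and Tyrp1 at −0.76. The sum mostly followed Dct, at a mean of 1447 CPM in AD and 902 CPM in HF + AD mice. Summed Langerhans cell markers were 371 to 834 and 358 to 622 CPM. Cd207 of that list was at a mean of only 2.12 CPM in AD and 0.863 CPM in HF + AD mice. The sum therefore came from its other genes, such as Epcam, and is not a level of Langerhans cells alone. Of the 7 genes, Mfge8 rose (0.78, edgeR adjusted p = 0.022) and the other 6 were below 0. Hair shaft markers were above all AD mice in 4 of 7 HF + AD mice, hair matrix markers in 3 and inner root sheath markers in 2. Summed sebocyte markers were 2627 to 4893 CPM in AD and 2025 to 3855 CPM in HF + AD mice, below all AD mice in 5 of 7. Markers of hyperproliferative epidermis, at 7188 to 24474 and 7199 to 18464 CPM, had no HF + AD mouse outside the AD range. The part of these cell types in the cadherin and catenin values was not tested.

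Across the 12 mice, 10 pairs of the genes were correlated on log2(CPM + 1). Ctnna1 and Ctnnd1 ran opposite, with Pearson's r = −0.811 (permutation p = 0.00105, adjusted over 10 pairs 0.0105) and Spearman's rank correlation = −0.923 (permutation p = 0.00012, adjusted 0.0012). Without the 2 mice farthest from the median of Ctnna1, r was −0.841 (permutation p = 0.00166). Since both genes differed between the groups in opposite directions, the pooled value contains that difference. Within groups, r was −0.518 over deviations from the group means (permutation p = 0.0861, adjusted 0.44) and −0.706 in the 7 HF + AD mice (exact permutation p = 0.0708), so the relation did not hold within groups at the threshold. The other 9 pairs did not pass after adjustment for either coefficient, among them Cdh1 with Ctnnd1 (r = −0.663, adjusted permutation p = 0.0874) and Cdh3 with Ctnna1 (r = 0.63, adjusted permutation p = 0.0874, and r = −0.203 without the 2 farthest mice).

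**Figure D3:**
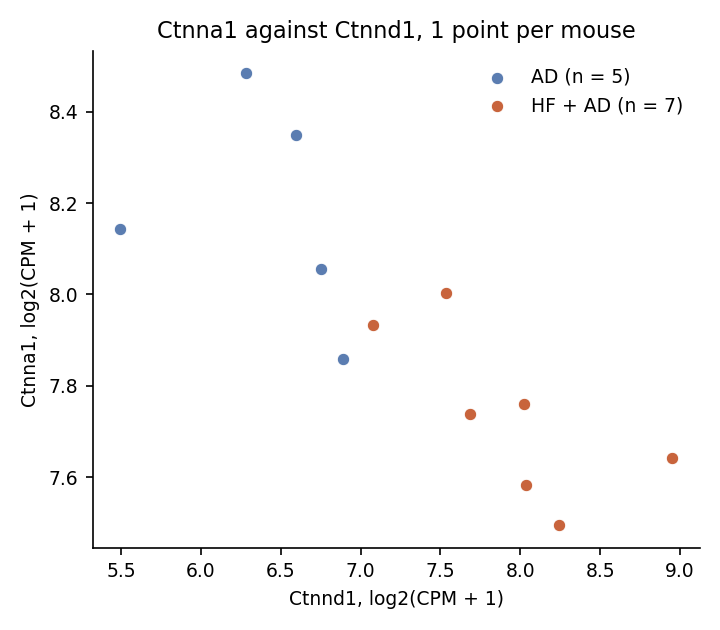
Ctnna1 (vertical axis) against Ctnnd1 (horizontal axis), both as log2(CPM + 1), 1 point per mouse, for 5 AD and 7 HF + AD mice. The groups separate along the Ctnnd1 axis, and lower Ctnna1 goes with higher Ctnnd1 over the 12 mice (r = −0.811), less so within groups (r = −0.518 over deviations).

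The genes most alike to each of the 5 were ranked by r of the deviations from the group means over 12 mice among 13199 genes with a mean count of at least 20. For Cdh1 they were Tmem237 (r = 0.958), Dnajc25 (0.915) and Col9a3 (0.913). For Cdh3 they were Snx7 (0.966), A730056A06Rik (0.926) and Malt1 (0.919), and for Ctnna1 Agfg1 (0.951), Hist1h2bc (0.933) and Hipk1 (0.924). For Ctnnb1 they were Hace1 (0.915), Arsa (0.897) and 5430416N02Rik (0.892), and for Ctnnd1 Fhl3 (0.948), Tbca (0.918) and Eva1a (0.910). None of the 5 genes was among the 3 nearest of another. No p was computed for these values, and the highest of 13199 genes over 12 mice can be this high by chance. They describe likeness in these mice and do not name partners.

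Around the cadherin–catenin core, 29 of 31 listed partners were tested, of which 4 rose and 2 fell (20.7%, against 9.2% of all genes). Pvrl4, a nectin that binds cells together beside cadherin, was at 1195 to 1449 counts in AD and 2178 to 5504 in HF + AD mice, and 7 of 7 HF + AD values exceeded the AD range (log2 fold change 1.40, SE 0.17, adjusted p = 0.00125, edgeR here and below). Actn4 (0.75, SE 0.12, adjusted p = 0.00459) and Actn1 (0.75, SE 0.17, adjusted p = 0.0151) encode α-actinins, which bundle actin, and were also higher in 7 of 7. Camsap3, which anchors microtubule minus ends and binds the junction through Plekha7, rose (1.42, SE 0.30, adjusted p = 0.0116) with 5 of 7 above.

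Ctnnal1, the α-catenin-like protein α-catulin, fell (−0.83, SE 0.19, adjusted p = 0.0152), with 6 of 7 HF + AD mice below all AD mice. The scaffold protein Magi1 also fell (−0.58, SE 0.17, adjusted p = 0.045) and was called in 9 of 23 alternatives. It lies outside the rule for naming genes and was picked with its value known. Vcl, the vinculin that binds stretched α-catenin, was at 0.20 (adjusted p = 0.42), Mllt4, the nectin-bound afadin, at 0.13 (adjusted p = 0.603), and Pvrl1, a further nectin, at −0.001 (adjusted p = 0.997). The median over the 29 was 0.19.

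The relatives of p120-catenin were in the same list, and Ctnnd1 was the one past the threshold. Arvcf was at 17.7 ± 4.82 CPM (SD, n = 5) and 27.3 ± 6.73 CPM (SD, n = 7), with a log2 fold change of 0.62 (SE 0.24, adjusted p = 0.106 by edgeR). Pkp4 was at 64.9 ± 10.2 and 87.1 ± 11.1 CPM (0.42, SE 0.14, adjusted p = 0.0718 by edgeR), with 6 of 7 HF + AD values over the AD range. Ctnnd2, the form known from neurons, had 80 to 165 counts in AD and 16 to 106 in HF + AD mice (−1.13, SE 0.39, adjusted p = 0.0784 by edgeR), with 6 of 7 below. These 3 genes, too, were picked with their values known.

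Of 14 other classical and type II cadherins, 7 were tested and 1 passed (14.3%, against 9.2% of all genes). Cdh5, the VE-cadherin of endothelium, rose (1.56, SE 0.42, adjusted p = 0.0284) from 19 to 79 counts in AD mice and 67 to 341 in HF + AD mice, and 6 of 7 HF + AD mice were above all AD mice. It was called in 16 of 23 alternatives, and not without AD mouse 2 or HF + AD mice 1, 2, 3 or 7. The summed endothelial markers, which include it, were 54.2 to 109 and 62.1 to 133 CPM. Of these 8 markers, Cdh5 and Kdr (1.06, SE 0.27, adjusted p = 0.0243) rose (25%, against 9.2% of all genes called). Log2 fold changes were below 0 for 4 of the 8. The part of endothelium in the Cdh5 value was not tested. Cdh2, the N-cadherin that replaces E-cadherin in mesenchymal cells, had 12 to 102 counts (−0.74, SE 0.63, adjusted p = 0.506), and Cdh11 of fibroblasts was at 0.33 (adjusted p = 0.485). The median of the 7 was 1.32, with large standard errors at these counts. It is the value of Cdh22, with 0 to 16 counts in AD and 0 to 26 in HF + AD mice (SE 1.23, adjusted p = 0.553). Cdh4, Cdh6 and Cdh13 also reached 0 counts in AD mice. The filter on low counts can keep a gene through the group where it is higher, so this median does not describe the family.

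Genes that shed, traffic or phosphorylate the complex gave 2 rises and 3 falls of 33 tested (15.2%, against 9.2% of all genes), with a median of −0.07. Without AD mouse 2 or HF + AD mouse 2, 3 genes were called. Fer, a tyrosine kinase that binds p120-catenin, rose from 39 to 80 counts in AD to 126 to 286 in HF + AD mice (1.40, SE 0.31, adjusted p = 0.0124), 7 of 7 above all AD mice. Ptpn1, a phosphatase, rose as well (0.67, SE 0.19, adjusted p = 0.0344, called in 14 of 23 alternatives). Rab5a, of early endosomes, fell with 7 of 7 below (−0.68, SE 0.16, adjusted p = 0.0164), as did the receptor kinases Met (−0.83, SE 0.19, adjusted p = 0.0164) and Erbb2 (−0.66, SE 0.17, adjusted p = 0.0225), with 6 of 7 below for each. Adam10, the main sheddase of E-cadherin, was at −0.54 (SE 0.18, adjusted p = 0.0604).

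Ctnnb1 itself did not pass, while 5 of 20 genes of its destruction complex fell and 0 rose (25%, against 9.2% of all genes, with 4.77% falling in all and 13.5% in the fifth with the highest counts), with a median of −0.27. The count was 1 to 5 when single mice were left out. Tnks2, a tankyrase that marks axin for degradation, fell with 7 of 7 HF + AD mice below all AD mice (−0.89, SE 0.16, adjusted p = 0.00631), as did the Apc-binding Amer1 (−0.58, SE 0.16, adjusted p = 0.0288). Fbxw11 (−0.56, adjusted p = 0.045) and Skp1a (−0.45, adjusted p = 0.046), of the ubiquitin ligase, and the kinase Gsk3b (−0.50, SE 0.15, adjusted p = 0.0487) were close to the threshold and were each called in 9 of 23 alternatives. These 5 do not act in 1 direction: Tnks2 opposes the complex, and the others are parts of it or of its ligase. Apc, the scaffold, was at 0.26 (adjusted p = 0.365).

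Among 30 tested Wnt receptors and nuclear partners of β-catenin, 3 rose and 1 fell (13.3%, against 9.2% of all genes, and 1 to 6 genes when single mice were left out), with a median of 0.09. Bcl9l, a coactivator bound by β-catenin, rose (1.62, SE 0.41, adjusted p = 0.0224) with 4 of 7 HF + AD values over the AD range. Chd8, which represses β-catenin targets (1.00, SE 0.25, adjusted p = 0.0204), and Porcn, which lipidates Wnt proteins (0.86, SE 0.26, adjusted p = 0.0487, called in 10 of 23 alternatives), also rose. Ep300, a histone acetyltransferase, fell with 7 of 7 below (−0.70, SE 0.15, adjusted p = 0.0118). Of 20 tested Wnt target genes, Nkd2 rose (0.53, SE 0.15, adjusted p = 0.0381) and Cd44 fell (−0.58, SE 0.16, adjusted p = 0.035), a share of 10%, close to the 9.2% of all genes, with a median of −0.04. Each was called in 12 of 23 alternatives, and 0 genes of the list were called without AD mouse 2 or HF + AD mice 4, 6 or 7. Axin2 and Lef1, used widely as readouts of Wnt signalling, were at −0.16 (SE 0.22, adjusted p = 0.713) and −0.05 (SE 0.26, adjusted p = 0.939).

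Of 10 repressors of E-cadherin, 0 passed the adjusted threshold by edgeR, against 9.2% of all genes. An unadjusted p under 0.05 was seen for 2 of the 10, against 25.1% of all genes. They lay in opposite directions, Tcf3 at −0.46 (adjusted p = 0.0795) and Tcf4 at 0.37 (adjusted p = 0.107). Snai2 was at 0.13 (SE 0.17, adjusted p = 0.693) and Zeb1, with 0 to 110 counts in AD mice, at 0.55 (SE 0.65, adjusted p = 0.66). Listed as activators were genes that favour E-cadherin in epithelium, directly or indirectly. Of the 12 tested, 1 passed, a share of 8.33%, close to the 9.2% of all genes. It was Ovol1, which rose (0.62, SE 0.16, adjusted p = 0.0232) with 7 of 7 HF + AD values over the AD range. Grhl2 was at 0.62 (SE 0.32, adjusted p = 0.24). Epcam, an adhesion protein of epithelia and Langerhans cells, was at −0.15 (SE 0.16, adjusted p = 0.62).

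**Figure D4:**
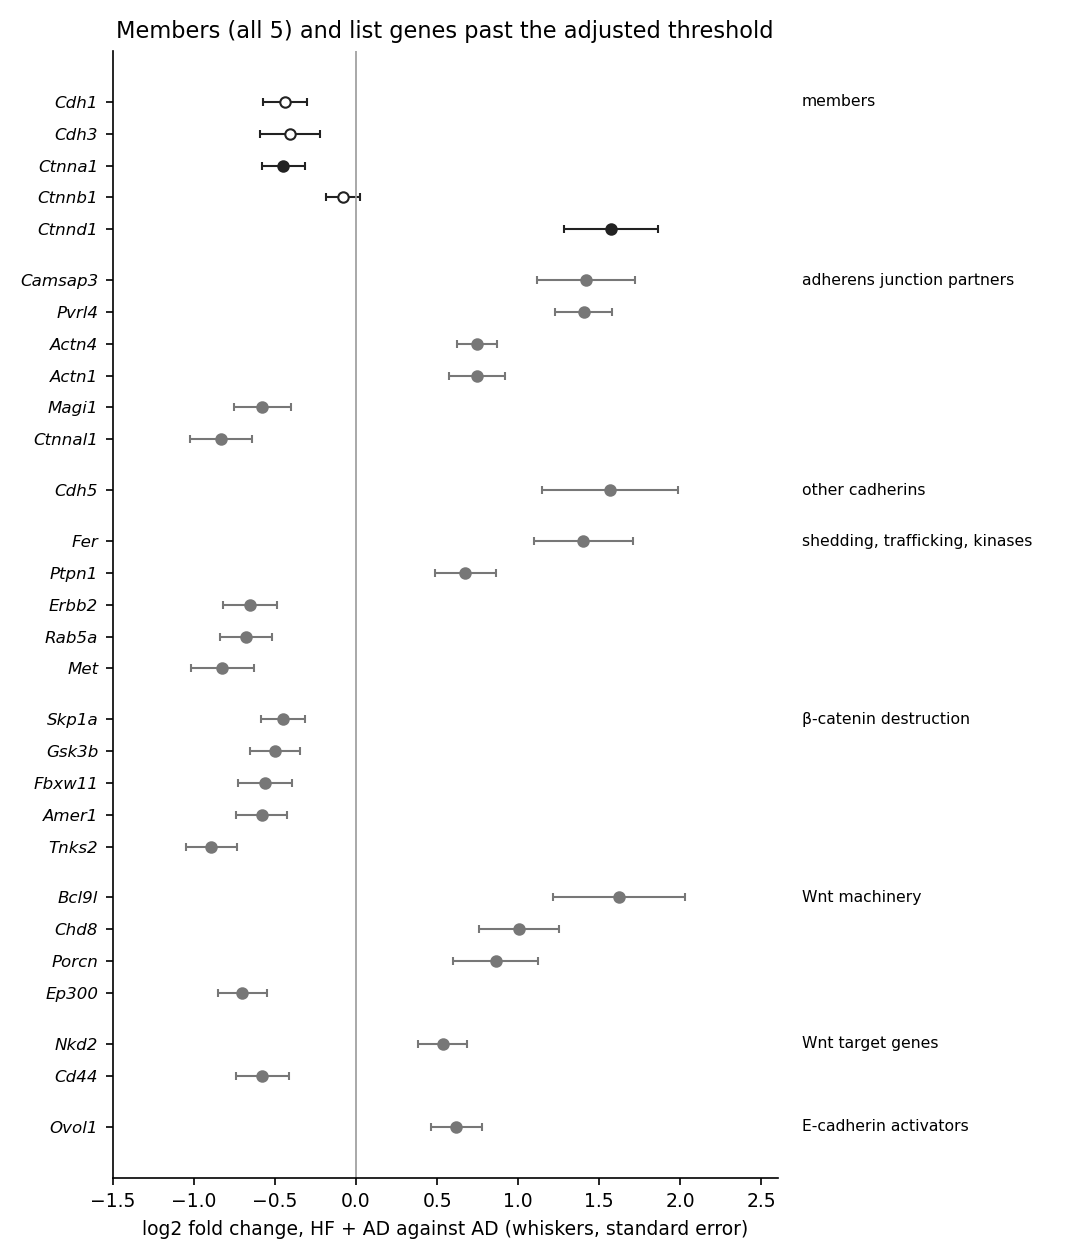
Log2 fold changes (HF + AD against AD, horizontal axis) with standard errors for the 5 genes and for the genes of 8 lists past the adjusted threshold, grouped by list (E-cadherin repressors had none). Filled points passed the adjusted threshold of 0.05 and open points did not. Ctnnd1 lies at 1.57, near Pvrl4, Camsap3, Fer, Cdh5 and Bcl9l. The 5 genes of β-catenin destruction that passed lie below 0, while 6 of the 20 tested, not shown, had log2 fold changes above 0.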

How the data were processed

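Libraries from the skin of 5 AD mice and 7 HF + AD mice were read at the 3′ end of mRNA (QuantSeq, 1 library per sample). The authors deposited raw counts per gene symbol. The submitters' processing notes name Bowtie2, bedtools and mm10, without versions or settings, and the paper names edgeR for normalization. Mapping by 3′ ends gives about 1 read per transcript, so no length correction was applied. No molecular identifiers are described. In the table, 35 of 23282 symbols were listed more than once and kept apart, and 4677 entries were at 0 in all mice. A count of 0 allows up to 3 counts.

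The 5 genes, the 8 pathway lists and the 15 marker lists were chosen with earlier results of these data known. Named genes were the 5, up to 5 genes per pathway list with the largest changes among those past the threshold, a fixed set of junction and Wnt genes, and the 3 nearest genes of each of the 5. Counts were fitted with edgeR 4.0.16 in R 4.3.3 (TMM, filterByExpr, quasi-likelihood test, condition as the only term, Benjamini–Hochberg over 14163 genes). TMM factors lay between 0.944 and 1.04. Single genes, ratios (counts + 1) and relative levels were tested on log2 values (pseudocount 1) with exact permutation tests, two-sided,, and correlations with 100000 permutations. Alternatives used DESeq2 1.42.0 and limma 3.58.1, with Python 3.11.15, NumPy 2.4.6, SciPy 1.17.1, pandas 2.3.3 and matplotlib 3.10.9. A further gene and a further list, tested with the rest, are not reported here. Gene positions came from GENCODE M21. On simulated counts for this comparison with 14272 genes tested, 196 of 200 changed genes were called, and 6 unchanged genes. The simulated log2 changes were at least 1 in size, with the same spread set for all genes. They were larger than the changes of Cdh1, Cdh3 and Ctnna1, so this recovery does not apply to changes of that size. Mice given the same number in both groups were treated as unpaired (see the closing section for the check).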

Additional observations from a re-analysis of the deposited data

Results flagged for a closer look

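Of 34 groups of values examined for a single mouse far from the rest, 2 were marked, and chance marks about 1 in 20 such groups. In HF + AD mice, the highest log2 ratio of Ctnna1 to Cdh1 (−1.67) stood off by 0.603 of the group's range, above the critical value of 0.568 for 7 mice. In AD mice, the highest log2 ratio of Jup to Ctnnb1 (−1.86, AD mouse 1) stood off by 0.715 of the range, above 0.71 for 5 mice. AD mouse 1 had the most Jup (387 CPM) and the least Ctnnb1 (1403 CPM) of its group.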

How the results depend on the processing

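The direction of all 5 genes' log2 fold changes held under the 23 alternatives, and Ctnnd1 passed, and Cdh3 and Ctnnb1 did not, in each of them. Cdh1 passed with DESeq2's size factors (−0.447, adjusted p = 0.0471), the Wald test of DESeq2 (−0.447, 0.015), a robust prior (−0.439, 0.0442) and a filter of 10 counts in each mouse (−0.430, 0.0438), as well as when AD mouse 3 or HF + AD mouse 5 was dropped. Ctnna1 no longer passed with library totals (−0.408, adjusted p = 0.0705), no filter on low counts (−0.440, 0.0569), limma voom with quality weights (−0.430, 0.0665), a GC correction (−0.428, 0.0578) or the replicate block (−0.447, 0.147). The causes were not tested.

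Left out singly, mice moved log2 fold changes to between −0.536 and −0.318 for Cdh1, −0.524 and −0.200 for Cdh3, −0.517 and −0.365 for Ctnna1, −0.116 and −0.036 for Ctnnb1, and 1.346 and 1.703 for Ctnnd1. Differences in log2(CPM + 1) moved to −0.527 to −0.313, −0.494 to −0.174, −0.521 to −0.365, −0.121 to −0.040 and 1.305 to 1.675 in the same order. Relative to basal markers they were −0.796 to −0.656, −0.803 to −0.461, −0.874 to −0.652, −0.474 to −0.318 and 0.996 to 1.371. With the suprabasal list, they were −0.495, −0.420, −0.519, −0.157 and 1.454, and none passed. Ratio differences were −0.101 to 0.252 for Cdh3 to Cdh1 (−0.073 without AD mouse 1, −0.101 without AD mouse 5), −0.210 to 0.128 for Ctnna1 to Cdh1 (0.046 without AD mouse 2, 0.128 without AD mouse 3, 0.012 without HF + AD mouse 4), 0.192 to 0.450 for Ctnnb1 to Cdh1, 1.71 to 2.134 for Ctnnd1 to Cdh1, −0.433 to −0.292 for Ctnna1 to Ctnnb1 and 0.301 to 0.584 for Jup to Ctnnb1. Genes detected differed by 1688 to 2167.

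Over all genes, 1303 were called, 766 with voom and 192 with the replicate block, and 639 to 1461 without single mice (803 without AD mouse 2, 686, 639 and 794 without HF + AD mice 1, 2 and 4). Same-numbered mice of the groups did not deviate together (r = 0.0317, −0.0307, −0.0815, 0.0389 and 0.00398). HF + AD mice 6 and 7 have no AD mouse of the same number. No pairing was seen, but values near 0 cannot exclude a shared cage, date or batch. Under the block Ctnnd1 was at 1.577 (adjusted p = 0.0287) and Cdh1's adjusted p was 0.141. The block left 2 junction partners, 1 destruction complex gene, 1 Wnt receptor or nuclear partner, and 0 in the lists of other cadherins, shedding, Wnt targets and activators. With voom, the counts were 3 partners, 0 other cadherins, 3 destruction complex genes, 2 Wnt receptors and partners, 0 Wnt targets and 0 activators. DESeq2's Wald test called 10 partners, and limma-trend 3 other cadherins. The destruction complex had 2 calls with library totals, 2 without a filter and 2 with the GC correction, under which 0 Wnt targets and 1 repressor were called. Without single mice, calls were 5 to 7 for partners, 0 to 2 for other cadherins (0 without AD mouse 2 or HF + AD mice 1, 2, 3 or 7), 3 to 6 for shedding (3 without AD mouse 2 or HF + AD mouse 2), 1 to 5 for destruction (1 without AD mouse 4 or HF + AD mice 1 or 2), 1 to 6 for Wnt receptors and partners (1 without AD mouse 3), 0 to 2 for Wnt targets (0 without AD mouse 2 or HF + AD mice 4, 6 or 7), 0 to 2 for repressors (2 without AD mouse 1) and 0 to 2 for activators (0 without AD mouse 2).

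Over deviations from the group means, correlations turned to −0.342 (Cdh1 with Cdh3), −0.317 (Cdh1 with Ctnna1), −0.394 (Cdh1 with Ctnnb1, and −0.150 with library totals) and 0.123 (Cdh3 with Ctnnd1), and that of Ctnna1 with Ctnnd1 was −0.518. Without the 2 farthest mice, Cdh3 gave −0.203 with Ctnna1 and 0.105 with Ctnnd1. With 5 and 7 mice, no exact permutation p could be under 0.00126.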
